A study of Mus musculus with 12 samples.

Results

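The genes described here are 48 genes of mitosis: parts of the kinetochore, the spindle, the condensin complex and the regulators that take a cell from G2 through division. They were chosen by function, as the rows of the deposited count table whose gene symbol was on the list, and all 48 were among its 33924 rows. All 48 also passed the filter on low counts, which left 10604 genes for testing. The samples were myeloid progenitors sorted from mouse femurs and tibias as live c-Kit+ cells that lack Sca1 and lineage markers, and their RNA was read with a 3' tag kit that counts transcript ends. All mice, controls included, were Mx+, a name in common use for the interferon-inducible Mx1-Cre driver, and the labels list no treatment. Control mice were Wt1+/+ and het mice carried 1 floxed allele of Wt1, written Wt1fl/+; whether the floxed allele had recombined was not measured here. The 4 groups of 3 samples were young control, young het, old control and old het; old samples carry the further word chronic and young samples acute, which the labels do not explain, so that age and this condition cannot be told apart. The labels do not give the ages, the time since any recombination or say that each sample is 1 animal, so the p-values reflect the spread of these samples only, which may be technical.

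At mitosis a kinase made of Cdk1 and a cyclin B drives chromosome condensation and spindle assembly. Kinetochores, protein plates on each centromere, hold the chromosomes to spindle microtubules, and the spindle checkpoint delays the anaphase promoting complex until all of them are held. That complex then marks securin and the cyclins for degradation, separase opens cohesin, and a central spindle guides the cut between the daughter cells. Transcripts of most of these genes are made late in the cycle and are low in resting cells, so their level in a sample depends on how many of its cells are dividing. Bone marrow progenitors with c-Kit divide often, erythroid ones in particular. In sorted bulk samples, fewer dividing cells and less RNA per dividing cell cannot be told apart.

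Total counts per library ran from 645460 in young control 2 to 9645502 in old control 1, so 3 counts stood for 5.10 and 0.275 CPM (counts scaled to library size by TMM). Kit, the marker of the sort, lay between 96.5 and 291 CPM, and Ly6a (Sca1), which the sort removes, was at 0 to 5 counts in every library but old control 1, which had 762. Summed markers of granulocyte and monocyte progenitors ran from 6478 to 17142 CPM, of erythroid cells from 1130.2 to 3962, and of T and NK cells from 28.9 to 149. Wt1 itself had 1 to 23 counts per library, was too low to test and does not check the genotype labels. The mitochondrial rRNA share was 5.03, 8.22 and 4.35% for young controls 1 to 3, 3.51, 3.01 and 3.0% for young hets, 1.70, 2.38 and 2.13% for old controls and 4.78, 1.40 and 4.75% for old hets. The libraries also differed in sex-linked RNA: Ddx3y had no count in the 3 young hets, in young control 3 or in old het 1, and was counted in the other 7. The parts of RNA quality and sex in the results below were not tested, except where a value is given.

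The summed level of the 48 genes overlapped between all 4 groups. The 48 genes together held 11031, 10736 and 8021 CPM in young controls 1 to 3, 10331, 9762 and 9415 in young hets, 8459, 9136 and 9469 in old controls and 9005, 9636 and 9090.4 in old hets, and the ranges of het and control overlapped at both ages. Group means (± SD, n = 3) were 9929 ± 1659 CPM for young control, 9836 ± 463 for young het, 9021 ± 515 for old control and 9244 ± 342 for old het. For single genes the highest group mean was 1.64 times the lowest at the median, and it was within 2 times of the lowest for 38 of 48, against 45.0% of all genes tested. The 48 genes were counted more deeply than most, with a median mean level of 97.1 CPM against 28.5 for all genes tested, and shallow genes spread more by counting error alone. No group held the highest mean of most genes: young control had it for 11 genes, young het for 13, old control for 13 and old het for 11.

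Across libraries the 48 genes did not rise and fall together as a set. Over the 12 libraries the median Pearson's r over the 1128 pairs of these genes was 0.03, beside 0.01 over all pairs of tested genes, on log2(CPM + 1); this is a description, since the pairs share libraries, depth and scaling. Of the pairs, 52.8% had a positive r. Such a median can hold related pairs of both signs, so it does not show that single pairs were unrelated. The heat map by library shows rows of opposite colour inside a single function, such as Ndc80 against Spc24 and Bub1 against Bub3.

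**Figure D1:**
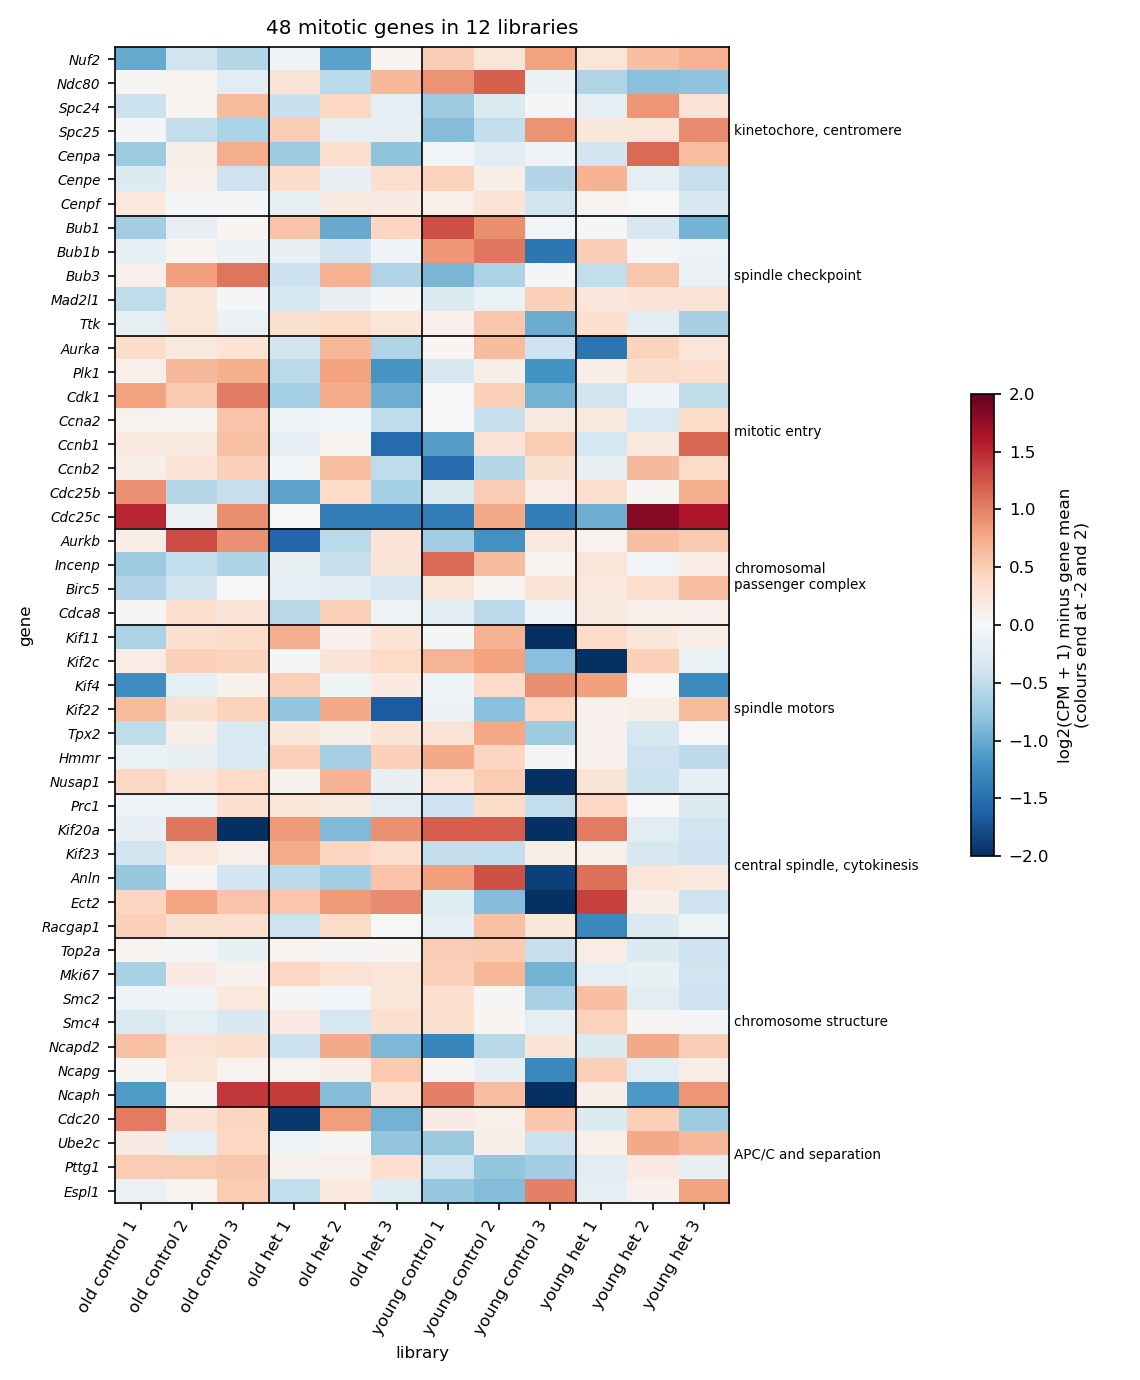
Log2(CPM + 1) of each of the 48 genes (rows, by function) in each of the 12 libraries (columns, by group), as the difference from the gene's own mean over the libraries. No column is red or blue throughout; the darkest blue cells include Kif11, Nusap1, Kif20a and Ect2 in young control 3.

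Between het and control progenitors none of the 48 genes passed an adjusted p of 0.05 in edgeR's quasi-likelihood test at either age. In young mice, where 0.424% of all tested genes passed, 28 of the 48 had a positive log2 change, as had 54.2% of all genes, and the median was 0.09 beside 0.08 for all. The smallest adjusted p was 0.133, for Ndc80, and 4 of 48 had an unadjusted p under 0.05, beside 14.0% of all genes. In old mice, where 0% of genes passed in edgeR, DESeq2 and limma-voom alike, 24 of 48 were positive, beside 46.8% of all genes, with a median of -0.05 beside -0.05. The smallest adjusted p was 0.999, and 1 gene, Cdk1, had an unadjusted p under 0.05, beside 3.58%. A test of the difference between the het effects of both ages called none of the 48 (smallest adjusted p = 0.228, for Ndc80), beside 0.0849% of all genes; 7 of 48 had an unadjusted p under 0.05, beside 12.8%. By DESeq2 1 of 48 passed in young mice, 0 in old mice and 0 in the difference.

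The standard error of a single gene's log2 change had a median of 0.42 in young and 0.42 in old mice (a doubling is 1 on this scale), and a difference of that size in 1 gene was not detectable at this depth and number of samples. The groups of 3 lay wholly apart for 4 of 48 genes in young mice, lower in het for Ndc80 and higher for Plk1, Cdca8 and Pttg1, beside 16.8% of all genes. In old mice they lay apart for 8, higher in het for Ttk, Incenp, Tpx2, Kif23 and Mki67 and lower for Ccna2, Ccnb1 and Pttg1, beside 11.1%.

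**Figure D2:**
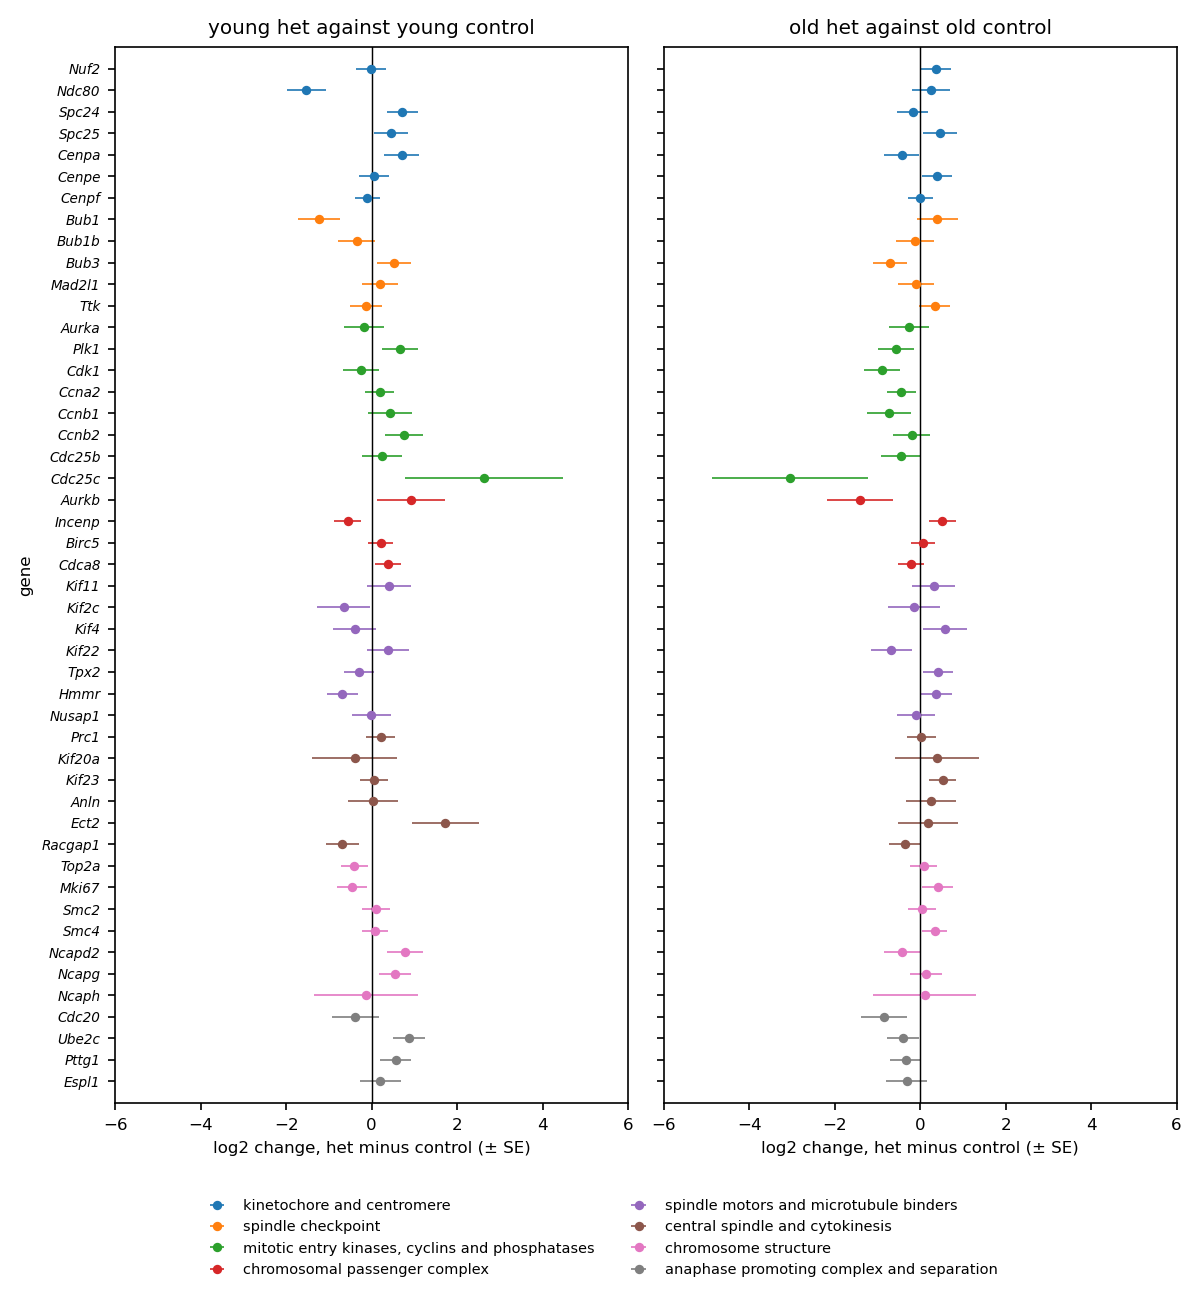
Log2 change (horizontal axis, het minus control, bars ± SE) of each of the 48 genes (vertical axis) in young mice on the left and old mice on the right, coloured by function. Most points lie within 1 of 0; the 8 green points of mitotic entry all lie left of 0 in old mice, and 2 of them do in young mice. Each point of Cdc25c rests on a group at 0 to 2 counts a library (young control on the left, old het on the right) and gives no measured fold.

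The NDC80 complex is the part of the kinetochore that grips microtubules, and its 4 subunits, which work in equal numbers, did not share a pattern. Ndc80, which carries the microtubule-binding head, was at 68.3, 85 and 33.6 CPM in young controls 1 to 3 and at 23.5, 20 and 20.5 in young hets. All 3 young hets lay below all young controls, and young control 3 was the closest to them. The log2 change was -1.54 (SE 0.46, adjusted p = 0.133), which did not pass. DESeq2 called Ndc80 with all libraries (-1.60, adjusted p = 0.0229). Without young control 3 the edgeR change was -1.84 (adjusted p = 0.0416). That setting leaves young controls with Ddx3y (173 and 83 counts) beside young hets at 0. It cannot separate genotype from sex-linked RNA. In old mice Ndc80 was at 37.2, 38.2 and 31 CPM in controls and 43.7, 24.9 and 58.4 in hets, which overlapped. The difference between its het effects was 1.78 (SE 0.63, adjusted p = 0.228).

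Nuf2, the partner of Ndc80 in the outer arm of the complex, was lower in old than in young libraries. It was at 45.7, 70.5 and 62.3 CPM in old controls, 89, 44.1 and 96.5 in old hets, 132, 110.5 and 164 in young controls and 110.2, 141 and 152 in young hets. Every old library was below every young library of its genotype, and het and control overlapped at both ages. Among controls Nuf2 fell by 1.19 on the log2 scale from young to old (SE 0.36, adjusted p = 0.0490), 1 of the 2 genes of the 48 that passed in this comparison, in which 6.98% of all tested genes passed. In hets it was -0.82 (SE 0.36, adjusted p = 0.726). The call among controls stood at the threshold. It was lost with limma-voom (adjusted p = 0.0510), total count scaling (0.105), no filter (0.0527), the compared groups alone (0.0531) and without old control 1 and young control 3 together (0.257). It was also lost without old het 1, old het 3, young het 2 or young het 3, and without any 1 of the 6 control libraries (log2 change from -1.40 to -1.02, adjusted p from 0.0536 to 0.192), and with mitochondrial rRNA share as covariate it was -0.91 (adjusted p = 0.576). That share was 1.70 to 2.38% in old and 4.35 to 8.22% in young controls, without overlap. The covariate therefore cannot be cleanly separated from the comparison of these controls.

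The inner arm of the complex anchors it to the centromere. Spc24 was at 188, 265 and 394 CPM in old controls, 187, 339 and 223 in old hets, 155, 207 and 247 in young controls and 222, 471 and 309 in young hets. Spc25 was at 214, 158 and 142 CPM in old controls, 313, 197 and 197 in old hets, 120.0, 156 and 411 in young controls and 257, 262 and 424 in young hets. In both genes the groups overlapped in every comparison, and the highest library was a young het, number 2 for Spc24 and number 3 for Spc25. In young mice Spc24 was at 0.72 and Spc25 at 0.45, opposite in sign to Ndc80, without passing (adjusted p = 0.388 and 0.667).

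The other genes of this class encode proteins of the centromere or the kinetochore. Cenpe, a kinesin that carries chromosomes to the middle of the spindle, had the highest mean level of the class, at 231, 299.9 and 209 CPM in old controls, 361, 253 and 355 in old hets, 387, 304 and 186 in young controls and 455, 248 and 204 in young hets, and all groups overlapped. Cenpa, the histone H3 variant that marks centromeres, was between 117 and 448 CPM, highest in young het 2. Cenpf, a large kinetochore protein, was among the steadiest of the 48, with group means from 215 to 236 CPM and log2 changes of -0.10 in young and 0.00 in old mice. Summed over its 7 genes the class held 1342 ± 58.7 CPM for young control, 1628 ± 178 for young het, 1258 ± 148 for old control and 1330.3 ± 39.3 for old het (± SD, n = 3 each). The young hets, at 1461, 1816 and 1606 CPM, all lay above the young controls, at 1302, 1314 and 1409, although 3 of the 7 genes, Ndc80 among them, had a negative log2 change; this sum is led by the most abundant genes and has no test.

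Among checkpoint genes, members of 1 complex again had opposite signs. Bub3, the WD40 protein that brings Bub1 and BubR1 to kinetochores, was at 209, 348 and 409 CPM in old controls and 103, 126 and 189.5 in young controls. All old controls lay above all young ones, with a log2 change of 1.20 (SE 0.40, adjusted p = 0.0745), which did not pass. It passed without old control 1 and young control 3 (1.74, adjusted p = 0.0411), with total count scaling (1.47, adjusted p = 0.0339), with no filter (1.19, adjusted p = 0.0295) and without old het 2 (1.21, adjusted p = 0.0381). Bub1, the kinase that Bub3 carries, had a negative log2 change, with 25.8, 37.5 and 43.3 CPM in old controls and 105, 81.6 and 40.5 in young controls, which overlapped in young control 3 (log2 change -1.09, SE 0.48, adjusted p = 0.178).

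In hets Bub3 was at 145, 318 and 128 CPM in old and 139, 288 and 178 in young mice, and Bub1 at 63.1, 20.4 and 57.1 and 41.3, 33.6 and 21.5. Neither passed between the ages in hets (adjusted p = 0.995 and 0.907). Old het 2 stood apart from the other old hets in both genes, high in Bub3 and low in Bub1. Bub1b, which encodes BubR1 of the checkpoint complex, was at 166, 190.4 and 32.9 CPM in young controls, lowest in young control 3, and at 128, 89.5 and 84.7 in young hets. Ttk, the kinase that starts the checkpoint signal, was at 161, 167 and 152 CPM in old hets, all above the old controls by a narrow gap, at 112, 152 and 116, with a log2 change of 0.34 (SE 0.37, adjusted p = 0.999). Mad2l1, which inhibits Cdc20, stayed between 24.6 and 49.7 CPM.

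The genes of mitotic entry shared a direction in old mice, though none passed alone. All 8 (Aurka, Plk1, Cdk1, Ccna2, Ccnb1, Ccnb2, Cdc25b and Cdc25c) had a negative log2 change in old het, beside 53.2% of all tested genes, with a class median of -0.51. In young het 6 of 8 were positive, beside 54.2% of all tested genes, with a median of 0.34. Their summed level was 842, 784 and 966 CPM for old controls 1 to 3 and 460.2, 923 and 342 for old hets. Old hets 1 and 3 were below every old control, and old het 2 was within their range. The mitochondrial rRNA share was 4.78% and 4.75% for old hets 1 and 3 and 1.40% for old het 2. In young controls 1 to 3 the share was 5.03, 8.22 and 4.35%, beside sums of 513, 719 and 499 CPM. For young hets it was 3.51, 3.01 and 3.0%, beside 576, 715 and 773 CPM. For old controls it was 1.70, 2.38 and 2.13%, beside the sums given above. The order of 3 libraries in a group does not show whether share and sum are related. The part of the share in the result was not tested beyond the covariate given next. The 8 of 8 became 7 of 8 with that share as a covariate (median -0.39), without old control 1 (-0.63) and without old het 3 (-0.26), and the median was -1.04 without old het 2.

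Cdk1, the kinase that drives mitosis with a cyclin B, had the highest mean level of the class. It was at 264, 215 and 306 CPM in old controls and 93, 252 and 75.5 in old hets, at 149.6, 209 and 77.2 in young controls and 114, 143 and 105 in young hets. Old control was highest, all its libraries above the young controls, and old het 2 alone among the hets reached its range. The log2 change was -0.89 (SE 0.42, adjusted p = 0.999) for old het against control, -0.26 (SE 0.42, adjusted p = 0.842) for young het against control and 0.86 (SE 0.42, adjusted p = 0.228) for old against young control. Plk1, a kinase that promotes centrosome maturation and activates Cdc25, was at 162, 238 and 249 CPM in old controls, 104, 264 and 66.3 in old hets, 121, 165 and 65.7 in young controls and 166, 195 and 190.4 in young hets. Its young hets lay above the young controls with the nearest pair almost equal, and its old hets held the highest of the 12 libraries, old het 2, and 1 of the 2 lowest, old het 3. Its log2 change was -0.57 (SE 0.42, adjusted p = 0.999) in old mice and 0.66 (SE 0.43, adjusted p = 0.516) in young mice. Without old het 2 the difference of its het effects passed (-2.02, adjusted p = 0.0453), and with all libraries it was -1.24 (SE 0.60, adjusted p = 0.395).

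Cyclins bind Cdk1 and give it its activity. Ccna2, the cyclin of S and G2 phase, was at 96.3, 94.1 and 137 CPM in old controls and 86.5, 89 and 64.4 in old hets. Ccnb1, which with Cdk1 drives entry into mitosis, was at 48.2, 47.4 and 63.2 CPM in old controls and 37.2, 43.7 and 13.8 in old hets. In both the hets lay below the controls without overlap, by log2 changes of -0.44 (SE 0.34, adjusted p = 0.999) and -0.74 (SE 0.51, adjusted p = 0.999). Ccnb2, the other B cyclin, was at 69.3, 77.6 and 88.9 CPM in old controls and 62.3, 97.4 and 44.7 in old hets, which overlapped. In young mice all 3 cyclins overlapped between het and control, at 0.19, 0.44 and 0.76. The phosphatases that switch Cdk1 on differed in abundance: Cdc25b was between 29.1 and 118 CPM, while Cdc25c was counted 71, 6 and 9 times in old controls, 2, 0 and 0 in old hets, 0, 2 and 0 in young controls and 1, 55 and 41 in young hets. Cdc25c was thus at or under 3 counts in all old hets and young controls, and its difference of het effects did not pass (adjusted p = 0.367). Aurka, the kinase of the spindle poles, was at 21.2, 82.6 and 70.9 CPM in young hets, with young het 1 lowest of all 12 libraries.

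**Figure D3:**
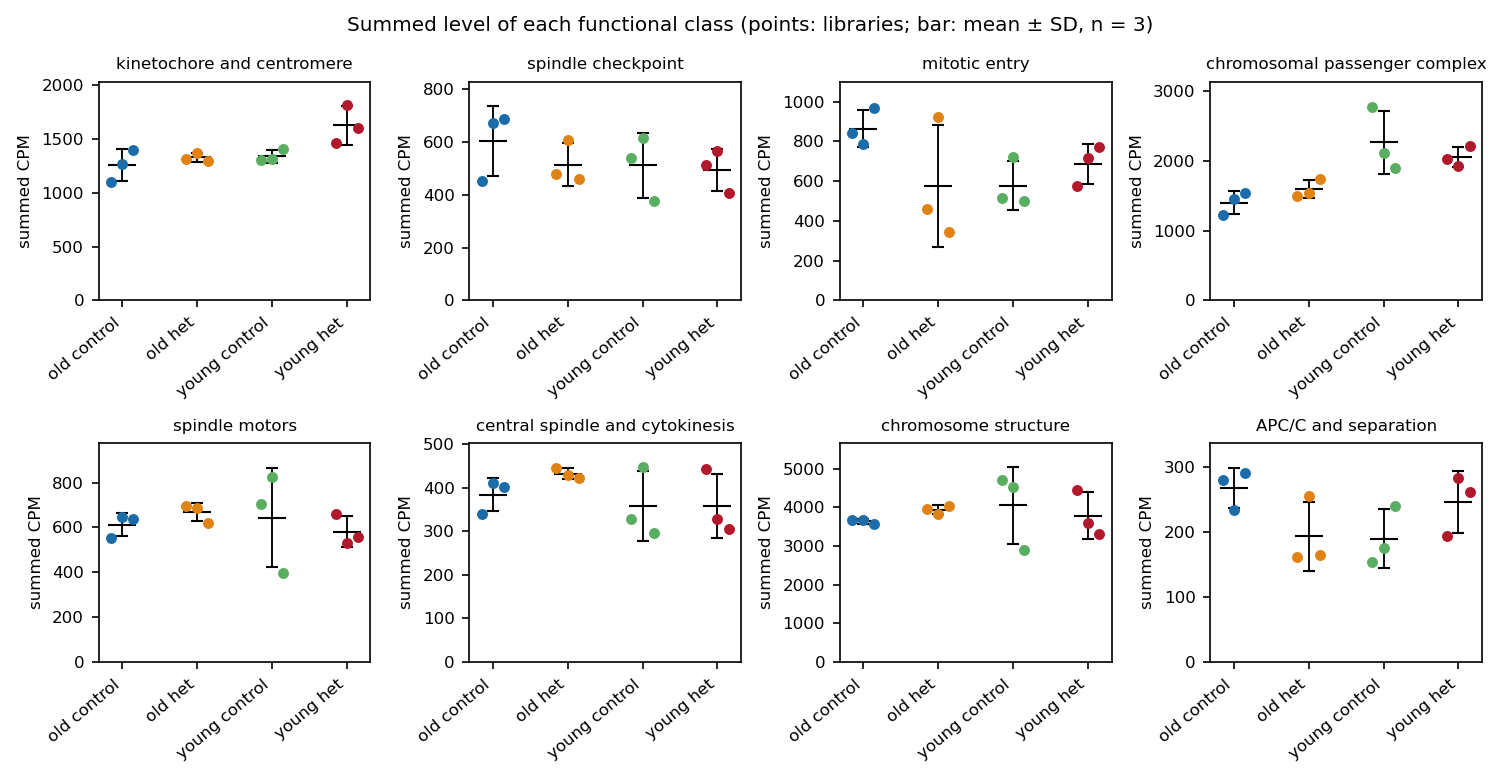
Summed CPM (vertical axis, from 0) of the genes of each of the 8 functions in each library (points, replicates 1 to 3 from left to right) by group, with mean ± SD (n = 3). In mitotic entry old hets 1 and 3 sit at 460.2 and 342 while old het 2 sits at 923, among the old controls.

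The chromosomal passenger complex corrects wrong kinetochore attachments and later prepares the cleavage site. Its scaffold Incenp was the other gene of the 48 that passed between old and young controls. It was at 478, 559 and 511 CPM in old controls, 707, 576 and 933 in old hets, 1719.8, 1215 and 814 in young controls and 922, 751 and 872 in young hets. Old controls were lowest and below every other library, and young controls 1 and 2 were highest. Incenp fell by 1.28 on the log2 scale from young to old control (SE 0.32, adjusted p = 0.0219). The call was lost without any 1 of old controls 1 to 3 or young control 1 (adjusted p from 0.0697 to 0.0885, log2 change from -1.33 to -1.03), and with mitochondrial rRNA share as covariate it was -0.92 (adjusted p = 0.530), a setting under which 0 of 10604 genes passed in this comparison. The share does not overlap between old and young controls, so this setting cannot cleanly separate it from their comparison.

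Incenp did not pass between the ages in hets (log2 change -0.20, SE 0.32, adjusted p = 0.961). Its old hets lay above its old controls and its young hets overlapped its young controls, with log2 changes of 0.52 and -0.56 and a difference of 1.08 (SE 0.45, adjusted p = 0.314). Birc5 (survivin), which binds the complex to chromatin, was lower in old than in young libraries of each genotype without overlap: 452, 519 and 680.1 CPM in old controls and 812, 707 and 818 in young controls, 602, 586 and 542 in old hets and 794, 868 and 1039 in young hets. The log2 changes were -0.50 (SE 0.29, adjusted p = 0.305) and -0.64 (SE 0.29, adjusted p = 0.745). Cdca8 (borealin) was at 274, 344 and 320.1 CPM in old controls, above all young controls at 232, 187 and 253 (log2 change 0.48, SE 0.31, adjusted p = 0.372). The kinase Aurkb was low, at 111, 103 and 41 counts in old controls, 3, 15 and 17 in old hets, 7, 2 and 14 in young controls and 29, 96 and 80 in young hets, and did not pass in any comparison. Scaled for depth, Aurkb was at 10.2, 24.3 and 18.1 CPM in old controls and 2.43, 6.01 and 11.2 in old hets. In young controls it was at 5.31, 3.40 and 10.7 CPM and in young hets at 9.74, 14.4 and 13.6.

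**Figure D4:**
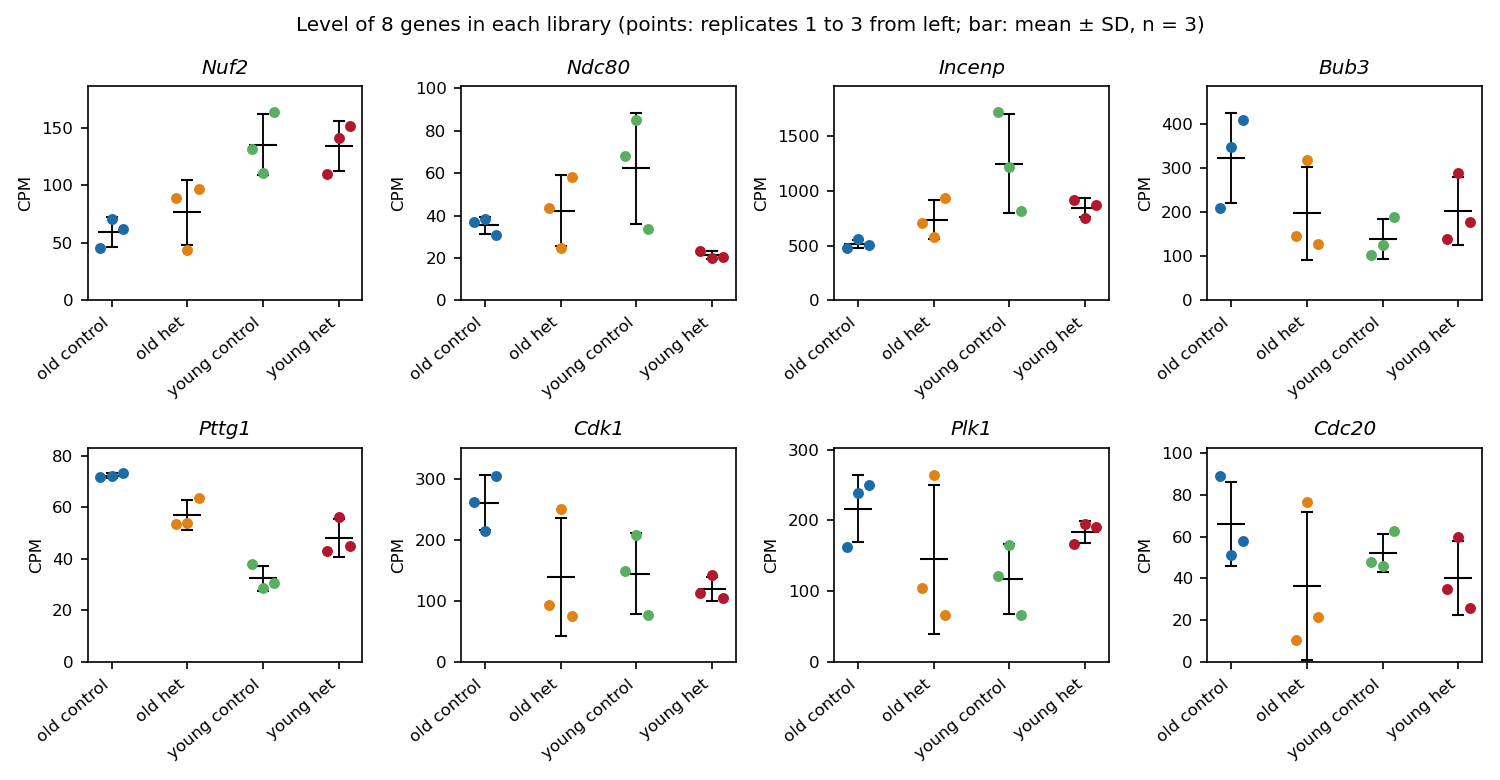
CPM (vertical axis, from 0) of Nuf2, Ndc80, Incenp, Bub3, Pttg1, Cdk1, Plk1 and Cdc20 in each library (points, replicates 1 to 3 from left to right) by group, with mean ± SD (n = 3). Nuf2 and Incenp have their lowest mean in old control, Bub3 and Pttg1 in young control, and old het 2 stands above the other old hets in Bub3, Cdk1, Plk1 and Cdc20.

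Among spindle motors and microtubule binders, Tpx2, which activates Aurka on the spindle, had the highest mean level. It was at 101, 155 and 116 CPM in old controls, 167, 156 and 173 in old hets, 172, 246 and 87.1 in young controls and 153, 115 and 144 in young hets. Old hets lay just above old controls (log2 change 0.41, SE 0.35, adjusted p = 0.999), and young control 3 was lowest of all libraries. Hmmr, a spindle pole protein also known as a hyaluronan receptor, had the smallest p of this class, for the difference of het effects (log2 change 1.06, SE 0.52, adjusted p = 0.395). It was at 128, 56.9 and 127 CPM in old hets beside 82.7, 82.5 and 73.4 in old controls, and at 96.4, 68.5 and 63.2 in young hets beside 155, 122 and 88.7 in young controls, overlapping at both ages.

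Kif11 (Eg5), the motor that pushes the spindle poles apart, was at 86.6, 144 and 14.5 CPM in young controls, and Nusap1, which bundles microtubules near chromosomes, at 151, 175 and 26.7. In both, young control 3 was lowest of all 12 libraries. Kif2c (MCAK), which takes microtubules apart, was lowest in young het 1, at 3.36 CPM. Kif22, a motor that binds chromosome arms, was at 37.2, 109 and 19.7 CPM in old hets, highest in old het 2. Kif4, also a chromosome motor, ran from 16.5 to 79.5 CPM. None of the 7 passed in any comparison, and their median log2 change was -0.29 in young and 0.32 in old mice. Without young control 3 the young median was -0.48, and the old one was 0.05 without old control 1.

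In cytokinesis, Kif23 and Racgap1 form the centralspindlin complex that recruits Ect2, the activator of RhoA. Kif23 had the highest mean level, at 94, 142 and 131 CPM in old controls, 205, 166 and 157 in old hets, 88.1, 86.7 and 132 in young controls and 132, 98 and 91.9 in young hets. The old hets lay above the old controls and above the young hets, with log2 changes of 0.52 (SE 0.32, adjusted p = 0.999) and 0.72 (SE 0.32, adjusted p = 0.745). Its partner Racgap1 overlapped in all comparisons of 2 groups and was lowest in young het 1, at 27.6 CPM. Ect2 was at 22.3, 29 and 24.8 CPM in old controls and 13.7, 8.50 and 0 in young controls, with 0 counts in young control 3. The old controls were all higher (log2 change 1.79, SE 0.79, adjusted p = 0.173), and the young hets, at 43.3, 17.9 and 11.9, overlapped the young controls (log2 change 1.73, SE 0.78, adjusted p = 0.323).

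Anln (anillin), which anchors the contractile ring, was at 69.1, 95.2 and 9.94 CPM in young controls and Kif20a, a motor of the central spindle, at 22, 22.1 and 0.764. Both were far lower in young control 3 than in young controls 1 and 2. Prc1, the bundler of the central spindle, was between 72.6 and 136 CPM. In young control 3, 13 of the 48 genes were more than 2 times below both other young controls (Anln, Bub1, Bub1b, Ect2, Kif11, Kif20a, Kif2c, Mki67, Ncapg, Ncaph, Ndc80, Nusap1 and Ttk), beside 21.8% of all tested genes. Without young control 3, 1 of 48 passed between young het and control, Ndc80, in a setting where genotype and Ddx3y coincide in young mice. The median over the 48 between old and young controls was then -0.03 in place of 0.15.

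Genes of chromosome structure had the highest summed level of the 8 functions, led by Top2a and Smc4. Top2a, the topoisomerase that untangles sister DNA, was at 1715, 1599 and 1488 CPM in old controls, 1720.1, 1671 and 1691 in old hets, 2319.6, 2356 and 1189 in young controls and 1816, 1359.5 and 1242 in young hets. Young controls 1 and 2 stood above and young control 3 below all other libraries. The het effect was -0.41 (SE 0.32, adjusted p = 0.607) in young and 0.08 (SE 0.32, adjusted p = 0.999) in old mice. Mki67, the coat protein of mitotic chromosomes used as a marker of dividing cells, was at 153, 269 and 256 CPM in old controls, 321, 295 and 284 in old hets, 334, 384 and 125 in young controls and 211, 218 and 182 in young hets. Its old hets lay above the old controls, by 0.41 (SE 0.36, adjusted p = 0.999), and above the young hets, by 0.56 (SE 0.36, adjusted p = 0.870), and neither difference passed.

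Condensin I folds chromosomes with the motor pair Smc2 and Smc4 and the subunits Ncapd2, Ncapg and Ncaph. Smc2 had log2 changes of 0.10 in young and 0.05 in old hets and Smc4 of 0.09 and 0.34, and neither passed. Ncapd2 had the smallest p of this class, for the difference of het effects (log2 change -1.21, SE 0.60, adjusted p = 0.406). It was at 488, 397 and 406 CPM in old controls, 239, 548 and 173 in old hets, 129.8, 219 and 387 in young controls and 265, 546 and 456 in young hets. As in Cdk1 and Plk1, old hets 1 and 3 were below every old control and old het 2 was not. Ncapg was between 27.5 and 99.8 CPM, and Ncaph was low, at 20, 23 and 35 counts in old controls, 19, 6 and 10 in old hets, 15, 5 and 0 in young controls and 17, 12 and 61 in young hets.

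Pttg1 (securin), the inhibitor of separase, had little spread within groups. It was at 71.6, 72.1 and 73.4 CPM in old controls, 53.4, 54.1 and 63.7 in old hets, 38, 28.9 and 30.6 in young controls and 43, 56.5 and 45 in young hets. Old control was highest and young control lowest without overlap, and the hets of both ages lay between them. The log2 change was 1.15 (SE 0.37, adjusted p = 0.0626) between the controls, which did not pass, but passed in edgeR with total count scaling (1.45, adjusted p = 0.0200) and in DESeq2 (1.07, adjusted p = 0.0308), -0.34 (SE 0.35, adjusted p = 0.999) for old and 0.56 (SE 0.37, adjusted p = 0.518) for young het against control. The direction of het against control was opposite at the ages, each without overlap, and the test of that difference gave -0.90 (SE 0.51, adjusted p = 0.480).

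Ube2c, the ubiquitin-conjugating enzyme of the anaphase promoting complex, had the highest mean level of this class. It was at 77.5, 60.6 and 92 CPM in old controls, 64.7, 69.7 and 39.4 in old hets, 41, 74.8 and 51.2 in young controls and 74.3, 118 and 109 in young hets, and its difference of het effects was -1.27 (SE 0.53, adjusted p = 0.312). Cdc20, the activator of that complex and the target of the checkpoint, was at 88.9, 51.4 and 57.9 CPM in old controls and 10.5, 76.6 and 21.7 in old hets, lowest in old het 1 (log2 change -0.84, SE 0.54, adjusted p = 0.999). Espl1 (separase) was between 25.5 and 96.3 CPM, highest in young control 3. All 4 genes had a negative log2 change in old het, beside 53.2% of all tested genes, with a median of -0.37, or -0.56 without old het 2. In young het 3 of 4 were positive, beside 54.2%, with a median of 0.38, or 0.67 without young control 3.

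Old het 2 differed from the other old hets among these genes and among all genes. It was more than 2 times above both other old hets in 9 of 48 genes (Aurka, Bub3, Cdc20, Cdc25b, Cdk1, Cenpa, Kif22, Ncapd2 and Plk1), beside 11.0% of all tested genes. It was more than 2 times below both in 5 (Bub1, Hmmr, Kif20a, Ncaph and Nuf2), beside 9.77%. Its mitochondrial rRNA share was the lowest of the 12 libraries, its total count (2303346) was above those of old het 1 (1264603) and old het 3 (1542185), and it carried Ddx3y at 336 counts where old het 1 had 0. Their part in these levels was not tested.

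Between old and young controls, 28 of 48 genes had a positive log2 change, as had 57.9% of all tested genes, with a median of 0.15 beside 0.22. The 2 that passed, Nuf2 and Incenp, were lower in old, and 4.19% of all genes passed in this direction. The groups lay apart for 11 of 48, higher in old for Bub3, Cdk1, Cdca8, Ect2, Ncapd2, Ncapg and Pttg1 and lower for Nuf2, Incenp, Birc5 and Hmmr, beside 31.2% of all genes. Unadjusted p-values under 0.05 were found for 7 of 48, beside 23.1%. Between old and young hets none of the 48 passed, beside 0.00943% of all genes, with 24 positive (beside 50.6%), a median of -0.01 and 6 of 48 at an unadjusted p under 0.05, beside 6.28%; DESeq2 also called 0 of the 48. Their groups lay apart for 8, higher in old for Ndc80, Tpx2, Kif23 and Mki67 and lower for Nuf2, Mad2l1, Birc5 and Ube2c, beside 14.0%. These comparisons share libraries with the comparisons of genotype.

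Many promoters of late cell cycle genes carry a cell cycle genes homology region, a short element through which the DREAM and MuvB complexes act, downstream of CCAAT boxes bound by NF-Y. The promoters of 40 of the 48 genes were matched by symbol to RefSeq sequences of build GRCm38.p6, from 250 bases before to 50 bases after the start. The letters TTTGAA, on either strand, were found in 30 of the 40 (75%), beside 18.1% of 27025 promoters of the same length. CCAAT, on either strand, was found in 31 (77.5%, beside 37.9%), and both in 27 (67.5%, beside 7.12%). Matches of both motifs can share a base, as they do in Cdca8. The 5 promoters below belong to genes whose levels differed between libraries, and are shown to compare Nuf2, which passed between controls of both ages, and Ndc80, with the smallest p by genotype, with Cdk1, Plk1 and Cdc20, which varied together among the old hets; capitals mark TTTGAA and CCAAT matches on either strand.
Nuf2: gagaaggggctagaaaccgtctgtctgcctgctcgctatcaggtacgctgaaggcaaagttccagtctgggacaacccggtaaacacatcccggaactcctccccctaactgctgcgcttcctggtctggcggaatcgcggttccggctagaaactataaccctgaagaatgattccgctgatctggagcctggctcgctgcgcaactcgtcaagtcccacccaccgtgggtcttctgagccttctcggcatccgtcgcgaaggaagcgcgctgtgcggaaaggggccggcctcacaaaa
Ndc80: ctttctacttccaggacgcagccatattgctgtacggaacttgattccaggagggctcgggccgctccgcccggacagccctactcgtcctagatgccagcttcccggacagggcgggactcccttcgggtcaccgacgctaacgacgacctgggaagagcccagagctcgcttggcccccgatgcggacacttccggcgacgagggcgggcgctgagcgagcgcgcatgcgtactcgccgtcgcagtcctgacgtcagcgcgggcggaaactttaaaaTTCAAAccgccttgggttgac
Cdk1: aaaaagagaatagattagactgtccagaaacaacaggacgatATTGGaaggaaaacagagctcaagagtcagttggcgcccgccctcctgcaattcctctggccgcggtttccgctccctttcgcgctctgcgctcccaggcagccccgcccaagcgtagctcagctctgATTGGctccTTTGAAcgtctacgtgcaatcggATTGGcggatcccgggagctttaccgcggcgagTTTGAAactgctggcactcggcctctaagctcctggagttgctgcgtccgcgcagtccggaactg
Plk1: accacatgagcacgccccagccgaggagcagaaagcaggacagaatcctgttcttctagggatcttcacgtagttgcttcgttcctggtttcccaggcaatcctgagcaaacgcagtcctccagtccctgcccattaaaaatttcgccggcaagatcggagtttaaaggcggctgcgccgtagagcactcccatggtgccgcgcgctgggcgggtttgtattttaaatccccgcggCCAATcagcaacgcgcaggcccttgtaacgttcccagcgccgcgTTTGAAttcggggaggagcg
Cdc20: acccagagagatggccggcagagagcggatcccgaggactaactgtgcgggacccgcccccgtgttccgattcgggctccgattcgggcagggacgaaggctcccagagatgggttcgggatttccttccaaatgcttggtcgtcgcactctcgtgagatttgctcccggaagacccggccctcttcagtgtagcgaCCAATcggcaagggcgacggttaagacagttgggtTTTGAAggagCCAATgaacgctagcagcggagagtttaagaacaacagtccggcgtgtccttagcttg

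These windows are chr1:169531415-169531714 (- strand) for Nuf2, chr17:71526808-71527107 (- strand) for Ndc80, chr10:69352863-69353162 (- strand) for Cdk1, chr7:122159185-122159484 (+ strand) for Plk1 and chr4:118437294-118437593 (- strand) for Cdc20, each around the start of its gene. In this window Nuf2 holds neither motif and Ndc80 holds TTTGAA alone, while Cdk1, Plk1 and Cdc20 hold both. These genes were picked by their levels, so they do not show that motifs and levels go together. No promoter was matched for Incenp, the other gene that passed between controls. A match is a match of letters and does not show binding. Read by motif, the 27 matched genes with both had a median log2 change of -0.11 in old and 0.20 in young hets against control, and the 13 without both 0.07 and 0.03. Between old and young controls 20 of 27 with both motifs and 4 of 13 without were higher in old, with medians of 0.23 and -0.14. Of all tested genes 57.9% were higher in old, with a median of 0.22. The split by motif was made after the levels were seen and was not tested.

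Other genes of the same pathways, from lists that do not hold the 48, were read in the same fit. Of all tested genes, 0.424% passed for het against control in young mice and 0% in old mice. Between het and control at either age none passed among 32 tested genes of the kinetochore and centromere, 44 of spindle, centrosome and cytokinesis, 23 of mitotic entry and exit, 13 subunits of the anaphase promoting complex, 15 of cohesin and condensin II and 23 transcription factors of mitotic genes. Their median log2 changes in this order were -0.10, -0.06, 0.37, 0.20, -0.05 and 0.12 in young and -0.06, 0.08, -0.05, -0.24, 0.22 and -0.26 in old mice. Between old and young controls, where 6.98% of all tested genes passed, 3 of them passed. These were 1 of 44, 1 of 13 and 1 of 15 in their lists, and 0 in the other lists. Haus8, a subunit of the augmin complex that branches spindle microtubules, was at 71.1, 101 and 153 CPM in old and 517, 508 and 439 in young controls (256, 80.6 and 142 in old and 216, 328 and 472 in young hets) and fell by 2.18 (SE 0.41, adjusted p = 0.00396). Anapc13, a small subunit of the anaphase promoting complex, had 448, 125 and 82 counts in old and 5, 1 and 6 in young controls (12, 93 and 26 in old and 11, 211 and 79 in young hets) and rose by 3.30 (SE 0.80, adjusted p = 0.0171). Mau2, which loads cohesin with Nipbl, had 491, 148 and 82 counts in old and 16, 6 and 0 in young controls (41, 49 and 64 in old and 71, 120 and 161 in young hets) and rose by 2.43 (SE 0.73, adjusted p = 0.0498). As for Nuf2 and Incenp, no gene passed in this comparison with mitochondrial rRNA share as covariate. That share does not overlap between the controls of both ages, so the covariate cannot be cleanly separated from the comparison.

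The smallest p of the remaining lists belonged to Pmf1 of the MIS12 kinetochore complex (log2 change 1.48, SE 0.49, adjusted p = 0.0742, old against young control), Cks1b, a subunit of Cdk complexes (log2 change 1.30, SE 0.41, adjusted p = 0.0570, the same comparison), Pds5a, a cohesin regulator (log2 change -1.42, SE 0.38, adjusted p = 0.0953, young het against control) and Rbbp4, a histone binder of the MuvB core (log2 change 1.74, SE 0.64, adjusted p = 0.247, difference of het effects). None of these 4 passed. Pds5a was at 126, 194 and 195 CPM in young controls and 94.1, 49.2 and 49.1 in young hets, which did not overlap, and at 91.9, 86.5 and 47.8 in old controls and 110.0, 68.1 and 101 in old hets, which did. Rbbp4 was at 64.3, 108 and 117 CPM in old controls, 213, 81.4 and 202 in old hets, 147, 246 and 164 in young controls and 170.0, 71.5 and 43.5 in young hets. Pmf1 was at 80.1, 323 and 46.6 CPM and Cks1b at 105, 298 and 159 in old hets 1 to 3, highest in old het 2, as Bub3 and Cdk1 were. Foxm1, the forkhead factor that activates late cell cycle genes, was at 44.7, 25.9 and 43.8 CPM in old controls, 16.2, 32.1 and 15.8 in old hets, 22, 28.9 and 57.3 in young controls and 51.7, 48.8 and 49.1 in young hets; it was named for its role and not by the rule for naming genes. Its old hets lay below its young hets (log2 change -1.21, SE 0.48, adjusted p = 0.723), which did not pass.

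Replication genes, which are made earlier in the cycle, held 12252 ± 1162 CPM for young control, 11197 ± 384 for young het, 8268 ± 1174 for old control and 9822 ± 599.5 for old het, summed over 47 genes (± SD, n = 3 each). This sum is led by abundant genes and has no test, and Dut alone had a mean of 1604 CPM over all libraries. The median log2 change of these 47 genes was 0.14 in young and 0.06 in old het against control. Between old and young controls it was -0.13, with 22 of 47 positive, beside 57.9% of all tested genes. In that comparison, where 4.19% of all tested genes passed as lower in old, 2 of 47 passed, both lower in old. Those were Dut, which removes dUTP (log2 change -2.23, SE 0.47, adjusted p = 0.00695), and Slbp, which binds histone mRNA (log2 change -4.19, SE 0.48, adjusted p = 1.21e-04). Slbp also passed in young het against control (log2 change -3.05, SE 0.46, adjusted p = 0.00538) and in the difference of het effects (log2 change 4.68, SE 0.63, adjusted p = 0.00377). It was at 20, 32.3 and 30.1 CPM in old controls, 115, 27.7 and 113 in old hets, 410.0, 673 and 419.6 in young controls and 78.3, 40.8 and 62.6 in young hets, with young controls above all other libraries. Dut was at 409.8, 708 and 807 CPM in old controls, 1966, 576 and 1462 in old hets, 3162, 4498 and 1398 in young controls and 1937, 1202 and 1123 in young hets. In both genes old hets 1 and 3 were above and old het 2 was within the range of the old controls. Among 24 tested genes of cell cycle arrest and G1, 1 passed in any comparison, Ccnd1 (cyclin D1), at 119, 55.2 and 112 CPM in old and 11.4, 13.6 and 0 in young controls, and at 30.7, 68.1 and 100.5 in old and 22.2, 13.5 and 12.4 in young hets (log2 change 3.62, SE 0.73, adjusted p = 0.00573, old against young control). Of all tested genes 6.98% passed in that comparison.

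Summed erythroid markers were at 1243, 1210.4 and 3381 CPM in old controls, 2175, 1679 and 1130.2 in old hets, 3632, 3542 and 3612 in young controls and 2395, 3406 and 3962 in young hets, all 20 listed genes being detected. Summed granulocyte and monocyte markers were at 7769, 16883 and 10775 CPM in old controls, 12068, 17142 and 11121 in old hets, 7754, 6478 and 12984 in young controls and 12628, 15189 and 14183 in young hets. Between old and young controls, 18 of 19 tested erythroid markers had a negative log2 change, with a median of -0.85, and 1 passed. Of all tested genes 42.1% were negative there, with a median of 0.22. Between old and young hets 19 of 19 were negative, with a median of -1.09, and 0 passed in edgeR, with 9 at an unadjusted p under 0.05. Of all tested genes 49.4% were negative between hets, with a median of 0.01, and 6.28% had an unadjusted p under 0.05. Between the controls, where 6.98% of all genes passed, 6 of 19 granulocyte and monocyte markers rose and 1 fell, 3 of 8 B cell markers and 1 of 9 neutrophil markers fell, and 1 of 7 basophil and mast cell markers rose. In the same comparison 4 of 8 dendritic and MHC class II markers and 2 of 9 stem cell markers rose. Old control 1, the library with 762 counts of Ly6a, stood apart in these: its summed dendritic markers were at 881 CPM beside 156 and 170.2 in old controls 2 and 3, and its stem cell markers at 1632 beside 279.8 and 373. The part of cell makeup in the levels of the mitotic genes was not tested.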

How the data were processed

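RNA of 12 sorted samples was read with a Lexogen 3' mRNA kit, per the labels' protocols. The authors deposited raw counts per gene, 1 column per library; the submitters' processing notes name STAR 2.4, HTSeq 0.6.1, DESeq2 and mm9, with no role or order. The annotation, and whether counting used strand, were not given in the sources used here. Total counts per library ran from 645460 to 9645502, and genes of a few counts carry large counting error.

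Genes were kept by edgeR's filterByExpr (minimum count 10, minimum total 15), which left 10604 of 33924. One edgeR 4.0.16 quasi-likelihood fit (R 4.3.3, TMM scaling) held a mean for each of the 4 groups and no covariate, and p-values were adjusted over all 10604 genes by Benjamini-Hochberg with a threshold of 0.05. The SE of a log2 change is its size divided by the square root of the F statistic. CPM are counts over the TMM-scaled total of tested genes. Alternatives were DESeq2 1.42.0, limma-voom (3.58.1), RLE and total count scaling, the 20 most counted genes left out, no filter, the compared groups alone, mitochondrial rRNA share as covariate, old control 1 and young control 3 left out together, and each library left out. Class medians without old het 2, old control 1 or young control 3 were added after seeing the data. The fit was tested on simulated data. Promoter letters were searched by exact match.

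Values in every sample were given, by rule, for each of the 48 genes past the threshold and, in each of 8 functions, for the gene with the smallest p and the gene with the highest mean. Of the pathway lists, the genes past the threshold and the gene with the smallest p in each were named. Per-sample values of further members were added for description after their values were seen. The 48 genes and the lists were chosen with earlier results of these data known.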

Additional observations from a re-analysis of the deposited data

How the results depend on the processing

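No paired analysis was possible because the labels give no replicate numbers shared between groups. Of the 48 genes, the 2 called between old and young controls became 3 with DESeq2 (with Pttg1), 3 with total count scaling (Bub3, Incenp and Pttg1), 1 with limma-voom and 1 with the compared groups fitted alone (Incenp in both), and 0 with mitochondrial rRNA share as covariate. The covariate's values do not overlap between old and young controls, so it cannot be cleanly separated from their comparison. Without the filter, and without old control 1 and young control 3 together, the 2 called were Bub3 and Incenp. With 1 of the 6 control libraries left out 0 to 2 were called, and with a het library left out 1 to 3 (3 without old het 2, with Bub3). Between young het and control the count of 0 became 1 with DESeq2, 1 without old control 1 and young control 3 together, and 0 to 1 with 1 library left out (1 without young control 3). In the difference of het effects it was 0 to 1 (1 without old het 2), and in the other comparisons it stayed 0 under all settings run. The median log2 change of the 48 in young mice (0.09) was 0.25 with limma-voom, 0.23 with total count scaling and 0.0189 to 0.19 with 1 compared library left out. For the difference of het effects (-0.09) these were -0.23, -0.35 and -0.20 to 0.0668. Between controls (0.15) total count scaling gave 0.44 and left-out libraries -0.0296 to 0.16, the lowest without young control 3, and between hets left-out libraries gave -0.15 to -0.0317, the lowest without old het 2. Total count scaling moved the median of all tested genes as well, to 0.22, -0.42 and 0.52 in these comparisons. Tpx2's difference of het effects, 0.70 (adjusted p = 0.588), was -0.13 with mitochondrial rRNA share as covariate. The cause was not tested. Over all genes, calls in young mice were 45 in edgeR, 355 in DESeq2, 23 in limma-voom, 258 unfiltered, 13 with the groups alone, 1 with the covariate, 241 without both libraries and 1 to 157 with 1 compared library left out. Between controls they were 740, with 1295 in DESeq2, 0 with the covariate, 463 without both libraries and 315 to 777 with 1 left out; in the difference of het effects 9, with 296 in DESeq2, 2 in limma-voom, 216 unfiltered, 0 with the covariate, 59 without both and 2 to 294 with 1 left out. In old mice they were 0, with 11 unfiltered and 0 to 1 with 1 left out, and between hets 1, with 15 in DESeq2, 22 unfiltered, 2 with the groups alone, 2 with the covariate, 8 without both and 0 to 5 with 1 left out. Libraries of few counts limit the genes of low level most: in young control 2, 3 counts stand for 5.10 CPM, above most values of Cdc25c.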
